A study of Mus musculus with 8 samples.

Results

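Transcripts of integrin and laminin chains were examined in fetal mouse hearts with and without *Dio3*, the gene of the deiodinase that inactivates thyroid hormones. The chains were chosen by name: every gene symbol of the deposited table that consists of Itga or Itgb with a number, the lettered integrin symbols (*Itga2b*, *Itgad*, *Itgae*, *Itgal*, *Itgam*, *Itgav* and *Itgax*), and Lama, Lamb or Lamc with a digit. This gave 37 of 26590 gene symbols, of which 26 are integrins (18 alpha and 8 beta chains) and 11 are laminins (5 alpha, 3 beta and 3 gamma chains). A symbol can have several rows, each a UCSC known-gene transcript, and the 37 genes took up 108 of the 51414 rows. Unless another row is named, a gene is given by its highest row, that with the largest mean over all hearts.

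RNA of whole hearts from 4 *Dio3+/+* and 4 *Dio3-/-* fetuses, 1 heart per fetus, was sequenced after removal of ribosomal RNA. All fetuses had the C57BL/6J background, onto which the allele had been backcrossed, and the *Dio3-/-* fetuses carried the mutant allele in every tissue. The question was how gene expression in the fetal heart differs where thyroid hormone is not inactivated. The deposited table gives, for each row and genotype, the mean in RPKM (reads relative to transcript length and to all mapped reads) and the coefficient of variation (CV, the SD divided by the mean), and no value of a single heart, so that overlap between hearts of the genotypes could not be read.

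Laminins are secreted cross-shaped trimers of an alpha, a beta and a gamma chain that polymerize into the sheet of the basement membrane around cardiomyocytes, vessels and the epicardium. Integrins are membrane receptors made of an alpha and a beta chain. The alpha chain largely sets which matrix protein is bound, be it laminin, collagen, or proteins with the RGD motif such as fibronectin, and the beta chain links the receptor to the actin cytoskeleton. In the developing heart this contact holds muscle cells to their matrix and carries mechanical load.

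The labels disagreed on age. The title of each sample gives E13.5, and so does the age field of 6 hearts, but the age field of *Dio3-/-* hearts 3 and 4 gives E18.5. The study's results text and its supplementary gene list give E13.5 as well. Its methods and the legend of its expression figure give yet another age for the sequenced hearts. Because only genotype means were deposited, these 2 hearts could not be set aside, and age and genotype cannot be told apart for any value below if the age field is right. The design text calls the hearts male, yet *Xist*, which is transcribed in females, had means of 35.6 RPKM (CV 0.99) in *Dio3+/+* and 40.0 RPKM (CV 0.55) in *Dio3-/-* hearts, and the Y-linked *Eif2s3y* had 9.38 (CV 1.04) and 7.29 RPKM (CV 1.46). These 2 genes were chosen after their values were seen. *Dio3* itself was at 0.35 RPKM (CV 1.23) and 0.13 RPKM (CV 0.76), too low to check the labels. *Klf9*, a gene induced by thyroid hormone, averaged 1.86 RPKM against 8.48 RPKM in *Dio3-/-* hearts, and *Myh6* averaged 459.52 against 959.07 RPKM. Cardiac muscle transcripts were abundant in both genotypes, as the label of the tissue requires (*Actc1*, 4778 and 5638 RPKM). Liver transcripts varied widely between hearts of a genotype (median CV over 8 genes, 0.99 and 1.115), and so did some of bone and skeletal muscle in *Dio3+/+* hearts. All 8 liver genes had higher means in *Dio3-/-* hearts, with sums of 16.0 RPKM (*Dio3+/+*) and 108.1 RPKM (*Dio3-/-*). The 4 tested bone and cartilage genes had lower means in *Dio3-/-* hearts. The 4 of skeletal muscle were 2 higher (*Ckm* and *Acta1*) and 2 lower (*Myod1* and *Myog*). *Myod1* had 4.42 RPKM (CV 1.62) in *Dio3+/+* and 0.46 RPKM (CV 1.18) in *Dio3-/-* hearts. *Myog* had 9.78 RPKM (CV 1.56) and 1.17 RPKM (CV 0.86), in the same order. The part of these tissues in the values of the chains was not tested.

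Of the 37 chains, 25 exceeded 1 RPKM in the mean of either genotype and were tested, and 12 did not. Differences were tested from the deposited means and CVs with limma's moderated test on log2(RPKM + 0.5), with Benjamini-Hochberg adjustment over all 32703 tested rows. Log2 fold changes are *Dio3-/-* over *Dio3+/+* on that scale, where changes of low genes look smaller than they are. Where a pair of means or CVs stands without labels, the value of *Dio3+/+* hearts comes first. Of the 25 chains, 4 passed the threshold of 0.05, each with the higher level in *Dio3-/-* hearts: *Lama2*, *Lamb2*, *Itga8* and *Itga9*. Over all 14657 genes tested, 280 were called higher, which is 1.91%. No chain was called lower, against 56 genes or 0.382% over the table, and Welch's test calculated from the same summaries called none either. Welch's test also called none of the 4 higher chains, with 7 chains at an unadjusted *P* value under 0.05 and a higher mean. Of all 14657 genes tested, 1965 met that limit with a higher mean in Welch's test, and 27 were called higher. The study, which used Welch's test too, lists *Lama2*, *Lamb2* and *Itga9* among its genes with a q value under 0.05, but not *Itga8*. That list is far longer than the 27 genes that Welch's test from the summaries called higher, with 0 called lower. The legend of the study's heatmap gives its cutoff as a *P* value instead. The study's q values can therefore not be read as like the adjusted *P* values here, and the reason for the difference was not tested. An unadjusted *P* value under 0.05 was found for 10 chains, 8 with a higher and 2 with a lower mean without *Dio3*, where the table as a whole had 2883 such genes (19.7%). The median log2 fold change of the 25 chains was 0.054, close to the 0.039 of all genes tested.

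The families are described apart, and the difference between them was not tested. Among all 14657 genes tested, 9273 had a higher and 5295 a lower mean in *Dio3-/-* hearts, beside which the counts below stand. All 7 laminin chains tested had a higher mean in *Dio3-/-* hearts, with *Lamb1* falling below 0 (-0.020) after centring on the median ratio of the table, and 2 of the 7 passed the test. Their median log2 fold change was 0.19. The 18 integrins tested were 11 with a higher and 7 with a lower mean, where *Itgav* (-0.022) and *Itgb8* (-0.0071) changed sign on centring, with a median of 0.039, and 2 passed. The 11 laminin chains summed to 253.3 RPKM in *Dio3+/+* hearts against 288.4 RPKM, and the 26 integrins to 461.6 against 470.5 RPKM.

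**Figure D1:**
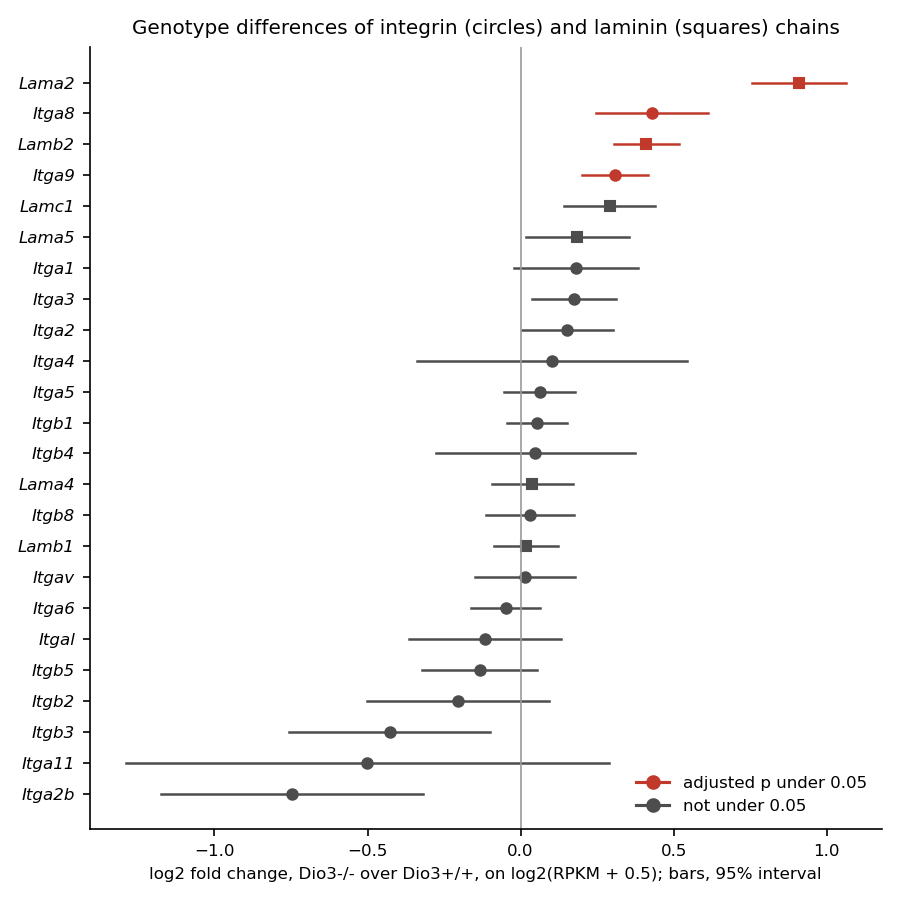
Log2 fold change (Dio3-/- over Dio3+/+, x axis, on the log2(RPKM + 0.5) scale) of 24 tested chains, with circles for integrins, squares for laminins and bars for the 95% interval of the limma fit. The 4 red points, from 0.31 for Itga9 to 0.91 for Lama2, passed the adjusted threshold, and Itga2b lies lowest at -0.75.

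The sequence before the start site of the 4 called chains is shown because these genes had higher transcript levels in the same hearts. RefSeq promoter windows of GRCm38.p6 were matched by symbol to 23 of the 37 chains, which gave 26 windows among 32851. The 250 bases before the start are printed 5′ to 3′ on the strand of the gene, with each match of a searched motif in capitals. The Itga8 window is chr2:12301945-12302194 (minus strand), the Itga9 window chr9:118711442-118711691 (plus strand), the Lama2 window chr10:27616943-27617192 (minus strand) and the Lamb2 window chr9:108479612-108479861 (plus strand).
Lama2: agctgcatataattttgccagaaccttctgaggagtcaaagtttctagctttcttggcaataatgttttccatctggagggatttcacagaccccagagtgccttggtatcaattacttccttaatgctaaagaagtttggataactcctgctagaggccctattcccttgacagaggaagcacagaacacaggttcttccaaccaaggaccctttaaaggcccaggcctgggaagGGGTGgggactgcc
Lamb2: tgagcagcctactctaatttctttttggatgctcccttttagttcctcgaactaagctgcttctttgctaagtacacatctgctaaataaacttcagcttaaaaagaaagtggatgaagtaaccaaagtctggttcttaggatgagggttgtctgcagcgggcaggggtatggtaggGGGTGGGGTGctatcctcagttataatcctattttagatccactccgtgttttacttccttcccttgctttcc
Itga8: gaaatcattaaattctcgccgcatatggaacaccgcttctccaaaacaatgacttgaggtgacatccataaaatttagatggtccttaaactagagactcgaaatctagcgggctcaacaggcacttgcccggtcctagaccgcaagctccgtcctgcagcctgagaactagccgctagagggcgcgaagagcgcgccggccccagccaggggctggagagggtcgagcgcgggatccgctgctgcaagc
Itga9: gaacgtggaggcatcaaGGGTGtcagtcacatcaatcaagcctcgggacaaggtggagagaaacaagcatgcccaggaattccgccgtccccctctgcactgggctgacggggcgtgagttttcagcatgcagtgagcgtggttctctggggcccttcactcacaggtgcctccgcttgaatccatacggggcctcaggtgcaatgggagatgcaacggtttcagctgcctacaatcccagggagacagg

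The motifs were searched on both strands. AGGTCA, the half-site of thyroid hormone receptors, was in 0 of the 26 windows of the chains and in 14.0% of all windows, and a direct repeat of it with 4 bases between was in 0 of 26 and in 0.0152% of all. GGGCGG, a GC box, was in 9 of the 26 windows and in 32.7% of all, CCAAT in 4 and in 33.8%, and TATAAA in 0 and in 12.4%. CACCC, the box of Krüppel-like factors, which was added after the windows were seen, was in 16 and in 52.0%. The direct repeat contains the half-site, and in the 4 printed windows no match overlapped another. In the windows of the 4 called genes the CACCC box was the only match, read as GGGTG on the printed strand, with 1 copy each in *Itga9* and *Lama2*, 2 in *Lamb2* and none in *Itga8*. The absence of a motif says only that these letters are not in this window, and elements further away were not searched.

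The laminin alpha chain that rose was *Lama2*, which gives the laminin of muscle and peripheral nerve its alpha chain and whose loss causes a congenital muscular dystrophy. *Lama2* had a mean of 6.49 RPKM (CV 0.04) in *Dio3+/+* and 12.63 RPKM (CV 0.09) in *Dio3-/-* hearts. The means were apart by far more than the sum of the SDs, 0.26 and 1.14 RPKM, and the ratio of the means was 1.95. On the log2 scale the difference was 0.91 (standard error 0.07, 95% interval 0.76 to 1.06, adjusted *P* = 0.00029 by limma). All 4 *Lama2* rows passed, with log2 fold changes from 0.88 to 0.92. In heart tissue as a whole, more cells of a type that makes a chain and more RNA of that chain per cell cannot be told apart. Of 8 cardiomyocyte markers, 7 had a higher mean in *Dio3-/-* hearts and 1 (*Myh7*) a lower mean, with a median log2 fold change of 0.23. By limma, 5 had an unadjusted *P* value under 0.05, and 2 passed the adjusted test (*Myh6* and *Ryr2*, both higher). The list summed to 8336 RPKM (*Dio3+/+*) against 9965 RPKM (*Dio3-/-*), but most of that sum was *Actc1* (4778 and 5638 RPKM). The sum is therefore no measure of cardiomyocyte content. The 2 tested markers of neural crest and Schwann cells, which also make *Lama2*, had lower means in *Dio3-/-* hearts (median log2 fold change -0.48), and 0 of them passed limma's test, adjusted or not. The part of these cells in the *Lama2* result was not tested.

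The most abundant laminin alpha chain, *Lama4*, which is typical of vessel walls, had 61.86 RPKM (CV 0.08) in *Dio3+/+* and 63.53 RPKM (CV 0.02) in *Dio3-/-* hearts. Its log2 fold change was 0.038, with an interval from -0.093 to 0.17, which leaves out a change of the size seen for *Lama2*. *Lama5*, a broadly used chain of vessels and epithelia, had 9.0 RPKM (CV 0.07) and 10.30 RPKM (CV 0.09), and its log2 fold change of 0.19 did not pass (adjusted *P* = 0.22 by limma). The 7 endothelial markers, which speak to the cells that make *Lama4*, had a median log2 fold change of 0.11, with 0 passing limma's adjusted test and 3 with an unadjusted *P* value under 0.05.

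The alpha chains had different proportions in the genotypes. *Lama2* made up 8.24% of the summed RPKM of the 5 alpha chains in *Dio3+/+* and 14.4% in *Dio3-/-* hearts, and *Lama4* made up 78.5% and 72.3%. *Lama4* was 9.53 times as abundant as *Lama2* in *Dio3+/+* hearts and 5.03 times in *Dio3-/-* hearts. *Lama2* was below *Lama5* in *Dio3+/+* hearts, with a ratio of 0.721, and above it in *Dio3-/-* hearts, with 1.23. RPKM is scaled to length, so levels of different chains can be set side by side, but these shares come from genotype means and carry no test. They also rest on the highest row of each gene. The *Lama4* rows ranged from 29.3 to 62.7 RPKM in the mean over both genotypes, so shares and ratios would differ with another row.

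Among the laminin beta chains, *Lamb2* rose and *Lamb1* did not pass the test. *Lamb2*, the beta chain concentrated at neuromuscular synapses, kidney filters and vessel walls, had 17.58 RPKM (CV 0.02) in *Dio3+/+* and 23.54 RPKM (CV 0.05) in *Dio3-/-* hearts. The log2 fold change was 0.41 (standard error 0.05, 95% interval 0.30 to 0.52, adjusted *P* = 0.0042 by limma), and the gene has a single row. *Lamb1*, the beta chain of most embryonic basement membranes, had 70.28 RPKM (CV 0.05) and 71.17 RPKM (CV 0.02), a log2 fold change of 0.018 with an interval from -0.087 to 0.12. A further 3 rows carry the older symbol *Lamb1-1* of the same gene, and the highest of them had 80.46 and 79.38 RPKM. *Lamb2* made up 19.9% of the beta chain sum in *Dio3+/+* and 24.7% in *Dio3-/-* hearts, a sum that leaves out the *Lamb1-1* rows.

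The gamma chain *Lamc1*, which nearly all heart laminins share, was the most abundant laminin transcript. It had 80.97 RPKM (CV 0.09) in *Dio3+/+* and 99.15 RPKM (CV 0.04) in *Dio3-/-* hearts. The log2 fold change was 0.29 (95% interval 0.14 to 0.44). The means were apart by more than both SDs together, but the gene was not called (adjusted *P* = 0.058 by limma). *Lama3* and *Lamb3*, chains of epithelial basement membranes, were at or below 0.79 RPKM in both genotypes. *Lama1*, the alpha chain of the earliest embryonic basement membranes, and *Lamc3* also stayed below 1 RPKM.

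**Figure D2:**
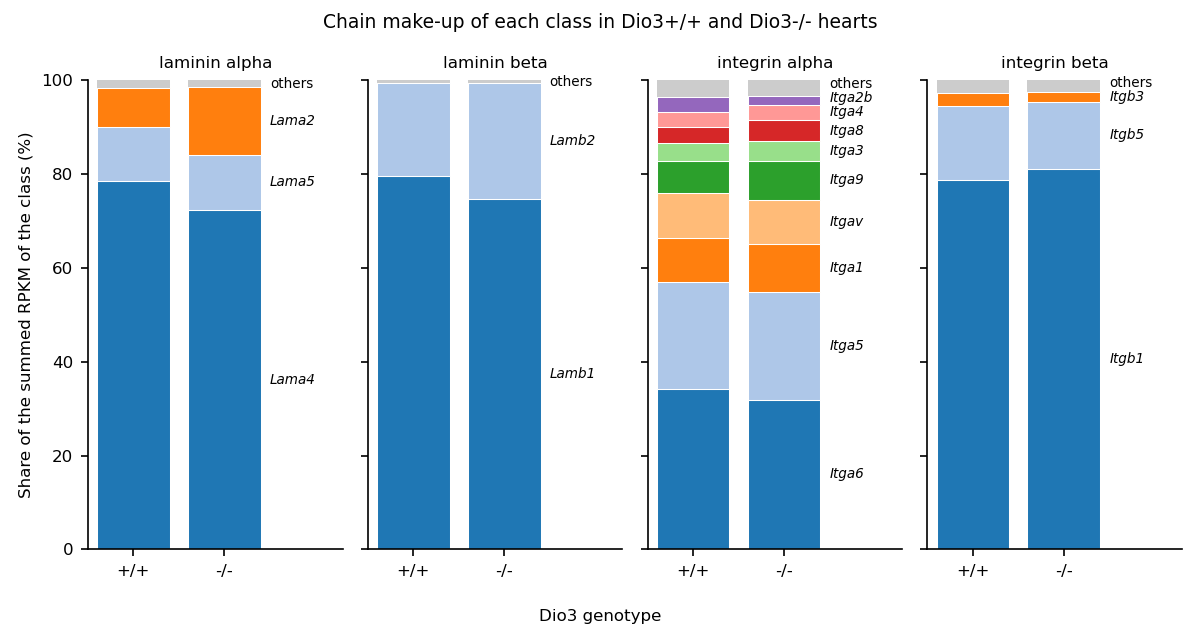
Share (%, y axis) of each chain in the summed RPKM of its class, from the authors' genotype means, with a bar for Dio3+/+ and one for Dio3-/- in each of 4 classes. Chains under 2% in both genotypes are pooled in grey as others, and Lama2 widens from 8.24% to 14.4% of the alpha chains while Lamb2 goes from 19.9% to 24.7% of the beta chains.

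The integrin alpha chains that bind laminin did not pass the test, and of the 2 tested only *Itga3* had an unadjusted *P* value under 0.05. *Itga6*, the most abundant integrin alpha chain, had 69.74 RPKM (CV 0.05) in *Dio3+/+* and 67.39 RPKM (CV 0.04) in *Dio3-/-* hearts, with a log2 fold change of -0.049 (95% interval -0.16 to 0.065). *Itga3* had 7.90 RPKM (CV 0.07) and 8.98 RPKM (CV 0.04), with a log2 fold change of 0.17 that did not pass (adjusted *P* = 0.16 by limma). *Itga7*, the laminin receptor chain of mature muscle, was at 0.54 and 0.63 RPKM and was not tested.

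The 3 tested receptor chains for collagen did not pass either, with an unadjusted *P* value under 0.05 for *Itga2* alone. *Itga1* had 19.02 RPKM (CV 0.13) and 21.62 RPKM (CV 0.07), and *Itga2* had 2.83 (CV 0.03) and 3.2 RPKM (CV 0.06). *Itga11*, a receptor chain of mesenchymal cells, had 1.51 RPKM with a CV of 0.79 in *Dio3+/+* hearts and 0.92 RPKM with a CV of 0.11 in *Dio3-/-* hearts. Its log2 fold change was -0.50 (standard error 0.35, 95% interval -1.29 to 0.29, the widest of the 25 chains, adjusted *P* = 0.49 by limma). The 8 fibroblast and epicardial markers had CVs from 0.04 to 0.55 in *Dio3+/+* hearts, with a median of 0.275, against 0.075 in *Dio3-/-* hearts. *Itga10* stayed below 1 RPKM.

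Of the 4 alpha chains that bind RGD motifs, *Itga8* rose. *Itga8*, a receptor chain of mesenchyme and smooth muscle that binds nephronectin, had 7.0 RPKM (CV 0.12) in *Dio3+/+* and 9.60 RPKM (CV 0.05) in *Dio3-/-* hearts. The log2 fold change was 0.43 (standard error 0.08, 95% interval 0.25 to 0.61, adjusted *P* = 0.034 by limma). Of its 3 rows, 2 passed, and the third narrowly missed (adjusted *P* = 0.051 by limma). This call held in 6 of 9 alternatives, where the other 3 chains held in 8 of 9. It was lost with the genotypes centred on the median ratio (adjusted *P* = 0.059), without the expression filter (0.060) and with Welch's test (0.18), and the adjusted *P* value ranged from 0.026 to 0.18 over the 9. The *Itga8* window printed above held no searched motif. Its ligand nephronectin (*Npnt*) had 12.72 and 13.31 RPKM. Of the 4 smooth muscle markers tested, 0 passed limma's adjusted test and 2 had an unadjusted *P* value under 0.05, with a median log2 fold change of 0.24. The 5 listed markers summed to 714.0 RPKM (*Dio3+/+*) against 846.7 RPKM (*Dio3-/-*), but most of that sum was *Acta2* (512.9 and 625.4 RPKM). *Cnn1* had a slightly lower mean in *Dio3-/-* hearts (118.9 and 117.2 RPKM), and *Myh11*, at 0.46 and 0.77 RPKM, was not tested. The sum is therefore no measure of smooth muscle content, and the part of these cells in the *Itga8* result was not tested.

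The fibronectin receptor chain *Itga5* had 46.37 RPKM (CV 0.06) and 48.43 RPKM (CV 0.03). *Itgav*, which pairs with several beta chains, had 19.65 RPKM (CV 0.11) and 19.87 RPKM (CV 0.02), with a log2 fold change of 0.016 that turned negative when the genotypes were centred.

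*Itga2b*, the alpha chain of the platelet fibrinogen receptor, had the lowest log2 fold change of the 25 chains. It had 6.66 RPKM (CV 0.21) in *Dio3+/+* and 3.77 RPKM (CV 0.29) in *Dio3-/-* hearts. The log2 fold change was -0.75 (standard error 0.19, 95% interval -1.17 to -0.32), and it did not pass the adjustment (adjusted *P* = 0.075 by limma). Its 3 rows lay between -0.75 and -0.71. Its partner *Itgb3*, which also pairs with *Itgav* in other cells, had 7.26 RPKM (CV 0.17) and 5.27 RPKM (CV 0.20), with a log2 fold change of -0.43 that did not pass either (adjusted *P* = 0.15 by limma). The chains were the 2 with an unadjusted *P* value under 0.05 and a lower mean in *Dio3-/-* hearts.

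Markers of blood also had lower means. This held for all 7 platelet markers, of which 0 passed limma's adjusted test and 5 had an unadjusted *P* value under 0.05, with a median log2 fold change of -0.46 and a summed level of 38.1 RPKM (*Dio3+/+*) against 24.2 RPKM (*Dio3-/-*). *Pf4*, a platelet granule chemokine, had 13.09 RPKM (CV 0.16) and 7.66 RPKM (CV 0.35), and *Gp9*, part of the von Willebrand factor receptor, had 5.95 (CV 0.13) and 3.23 RPKM (CV 0.38). All 6 red cell markers in the table had lower means as well, 1 of them passing the test (*Hbb-bh1*), with a summed level of 37274 RPKM against 12746 RPKM. The part of blood content in the values of *Itga2b* and *Itgb3* was not tested.

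*Itga9* and *Itga4* are closely related receptor chains for *Vcam1*, fibronectin variants and tenascin. *Itga9* had 13.81 RPKM (CV 0.03) in *Dio3+/+* and 17.22 RPKM (CV 0.04) in *Dio3-/-* hearts. Its log2 fold change was 0.31 (standard error 0.05, 95% interval 0.20 to 0.41, adjusted *P* = 0.013 by limma), and both rows of the gene passed. *Itga4*, the chain of epicardial and blood cells, had 6.43 RPKM (CV 0.34) and 6.94 RPKM (CV 0.12), with an interval from -0.34 to 0.54 that holds the *Itga9* value. *Itga9* was 2.15 times as abundant as *Itga4* in *Dio3+/+* and 2.48 times in *Dio3-/-* hearts. Of their ligands, *Vcam1* had 23.97 RPKM (CV 0.03) and 22.53 RPKM (CV 0.02). *Tnc* had 21.34 RPKM with a CV of 0.61 in *Dio3+/+* hearts and 14.97 RPKM with a CV of 0.07 in *Dio3-/-* hearts. Neither ligand passed.

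Of the 6 beta chains tested, limma's adjusted test called 0, and *Itgb3* alone had an unadjusted *P* value under 0.05. *Itgb1*, the partner of the laminin and collagen receptor chains and of *Itga5*, *Itga8* and *Itga9*, was the most abundant of all 37 genes. It had 202.7 RPKM (CV 0.04) in *Dio3+/+* and 210.4 RPKM (CV 0.01) in *Dio3-/-* hearts. Its log2 fold change was 0.054 with an interval from -0.046 to 0.15, so that a rise as large as that of *Itga9* lies outside it. *Itgb1* made up 78.7% of the beta chain sum in *Dio3+/+* and 81.1% in *Dio3-/-* hearts. Next came *Itgb5*, a partner of *Itgav*, with 40.74 RPKM (CV 0.12) and 37.10 RPKM (CV 0.06), a log2 fold change of -0.13 that did not pass. *Itgb8*, the partner of *Itgav* in the activation of latent TGF-beta, had 3.67 (CV 0.02) and 3.76 RPKM (CV 0.07), and *Itgb4*, the hemidesmosome chain, had 1.57 (CV 0.17) and 1.64 RPKM (CV 0.23). *Itgb6*, an epithelial chain, was at 0.54 RPKM in *Dio3+/+* hearts with a CV of 1.06 and at 0.27 RPKM in *Dio3-/-* hearts, and it was not tested.

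The chains of white blood cells were near the lower limit. *Itgal* had 1.03 RPKM (CV 0.15) and 0.91 RPKM (CV 0.10), and *Itgb2*, the common beta chain of these receptors, had 1.09 RPKM (CV 0.15) and 0.88 RPKM (CV 0.22). *Itgad*, *Itgae*, *Itgam*, *Itgax* and *Itgb7* were below 1 RPKM in both genotypes. Of 10 macrophage and leukocyte markers, 9 were in the table and 6 were tested, with a median log2 fold change of -0.11 and 1 call, *Lyz2*, which rose from 13.34 to 18.82 RPKM (adjusted *P* = 0.021 by limma). The 9 summed to 36.6 RPKM (*Dio3+/+*) against 40.2 RPKM (*Dio3-/-*). Of the 6 tested, however, only *Lyz2* had a higher mean in *Dio3-/-* hearts, and 5 had lower means. The sum is therefore no measure of leukocyte content. Macrophage genes such as *Csf1r* (7.50 and 7.17 RPKM) were above the limit, whereas the pan-leukocyte marker *Ptprc* was at 0.63 and 0.66 RPKM and the T cell marker *Cd3e* was at or near 0. The part of these cells in the values of the chains was not tested.

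**Figure D3:**
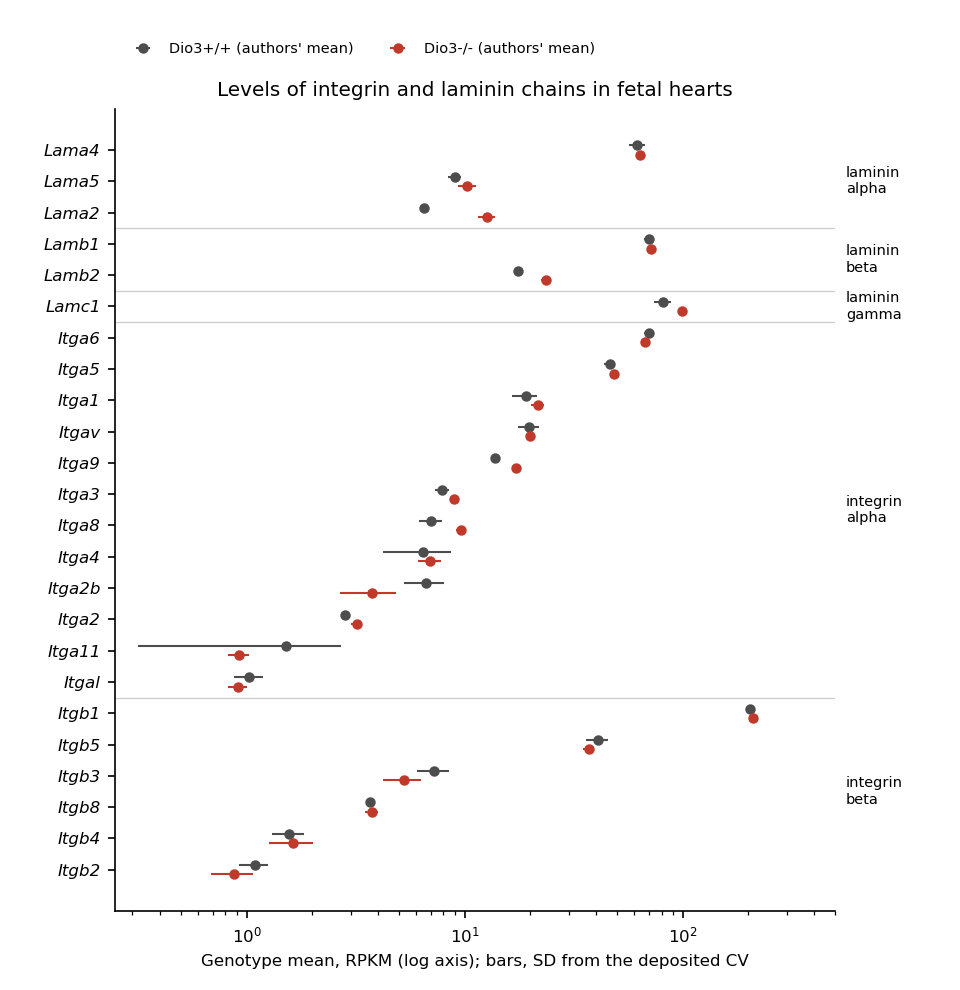
Genotype means (RPKM, log x axis) of 24 tested chains, grouped by class, with grey points for Dio3+/+, red points for Dio3-/- and bars for the SD from the deposited CV. Lama2, Lamb2, Itga8 and Itga9 have bars that do not meet, as do Lamc1, Itga3, Itga2 and Itga2b, whereas Itgb1, at 202.7 and 210.4 RPKM, lies far above the others in both genotypes.

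Means lay further apart than both SDs together for 8 of the 25 chains, the 4 called ones and *Lamc1*, *Itga3*, *Itga2* and *Itga2b*. The share of all genes tested with means this far apart was not counted, so the 8 cannot be read as a trait of the chains. The median CV of the 25 chains was 0.09 in *Dio3+/+* and 0.06 in *Dio3-/-* hearts, as it was over all genes tested. The smaller CV was in *Dio3-/-* hearts for 15 of the 25 chains and for 9584 of all 14657 genes tested.

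The choice of row had little effect on direction. Of the 19 chains with several tested rows, 17 had the same sign in every row, and the exceptions were *Itgav* (-0.11 to 0.016) and *Itgb8* (-0.050 to 0.041). Rows of a gene can share exons and reads and are not independent measurements. The largest distance in level was that of *Itgav*, whose highest row was at 9.17 times the lowest. No chain was called by another row that its highest row did not call.

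**Figure D4:**
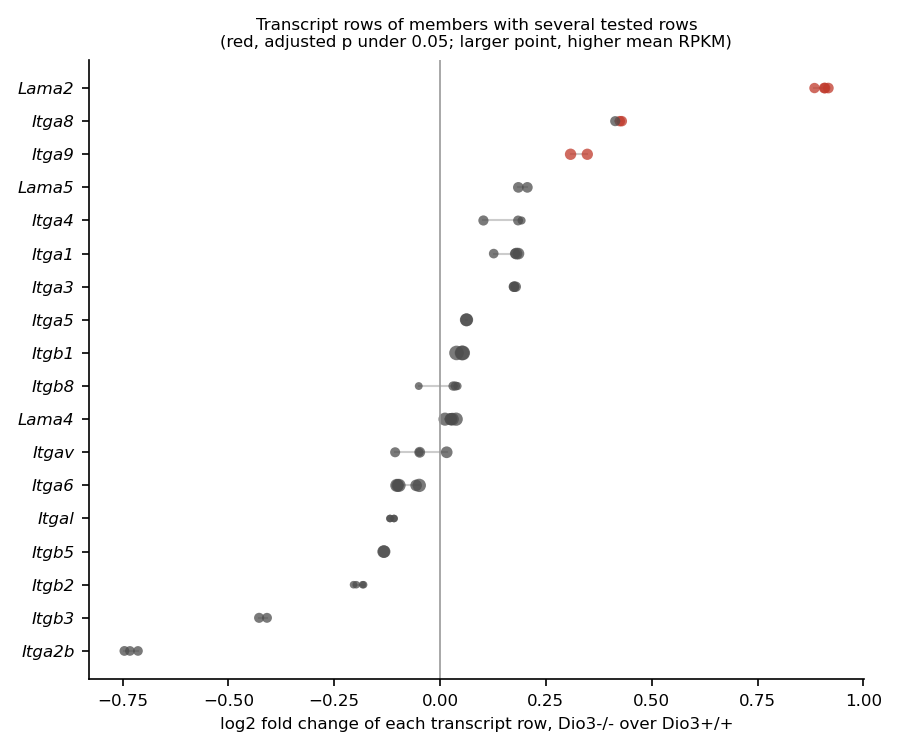
Log2 fold change (x axis, Dio3-/- over Dio3+/+) of each transcript row for 18 chains with several tested rows, joined by a line within a gene, with larger points for higher mean RPKM and red for an adjusted P value under 0.05. The rows of Lama2 lie together between 0.88 and 0.92, and those of Itgav and Itgb8 lie on both sides of 0.

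The matrix proteins that share the basement membrane with laminin were listed apart (15 genes, 13 tested). Of these, limma called 2 higher in *Dio3-/-* hearts, with a median log2 fold change of 0.11. They were the 2 chains of the main type IV collagen network. *Col4a1* had 93.8 RPKM (CV 0.08) and 122.6 RPKM (CV 0.06), or 0.39 on the log2 scale (adjusted *P* = 0.023 by limma), and *Col4a2* had 65.5 (CV 0.06) and 94.8 RPKM (CV 0.05), or 0.53 (adjusted *P* = 0.0026 by limma). Perlecan (*Hspg2*) had 39.91 and 50.44 RPKM and did not pass (adjusted *P* = 0.073 by limma). The linkers between laminin and collagen had close means, with 56.0 and 54.3 RPKM for *Nid1* and 60.01 and 59.96 RPKM for *Nid2*. Dystroglycan (*Dag1*), the receptor of *Lama2* laminin that is not an integrin, had 97.1 and 106.4 RPKM (adjusted *P* = 0.32 by limma).

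Of 27 other ligands of integrins, 24 were tested, with 1 higher, 1 lower and a median log2 fold change of 0.069. *Emilin2*, an elastic fibre glycoprotein, had 31.75 RPKM (CV 0.06) and 41.61 RPKM (CV 0.05), or 0.38 on the log2 scale (adjusted *P* = 0.010 by limma). *Ibsp*, bone sialoprotein, had 11.25 and 0.03 RPKM (log2 fold change -4.47, adjusted *P* = 0.033 by limma), but its CV in *Dio3+/+* hearts was 1.54, so the means were apart by less than the SD of that genotype. Fibronectin (*Fn1*) had 185.5 and 202.2 RPKM (adjusted *P* = 0.38 by limma).

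Of 40 genes of the adhesion complex inside the cell, 37 were tested, with 3 called higher by limma and a median log2 fold change of 0.080. Melusin (*Itgb1bp2*), a muscle protein that binds the tail of *Itgb1*, had 16.63 RPKM (CV 0.07) and 25.09 RPKM (CV 0.07), or 0.58 on the log2 scale (adjusted *P* = 0.0040 by limma). *Itgb1bp3*, a muscle kinase of nicotinamide riboside that was first found as a binder of *Itgb1*, had 5.07 (CV 0.16) and 7.37 RPKM (CV 0.07), and alpha-actinin *Actn1* had 68.0 (CV 0.04) and 79.4 RPKM (CV 0.02), with adjusted *P* values of 0.044 and 0.037 by limma. The calls of these last 2 were lost with the genotypes centred, without the mean-variance trend and with each CV raised by its rounding error. Without the expression filter *Itgb1bp3* was lost as well, and with Welch's test all 3 calls were lost. Focal adhesion kinase (*Ptk2*) had 22.84 and 22.82 RPKM, integrin-linked kinase (*Ilk*) 99.1 and 108.2 RPKM, and talin (*Tln1*) 41.28 and 45.67 RPKM.

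**Figure D5:**
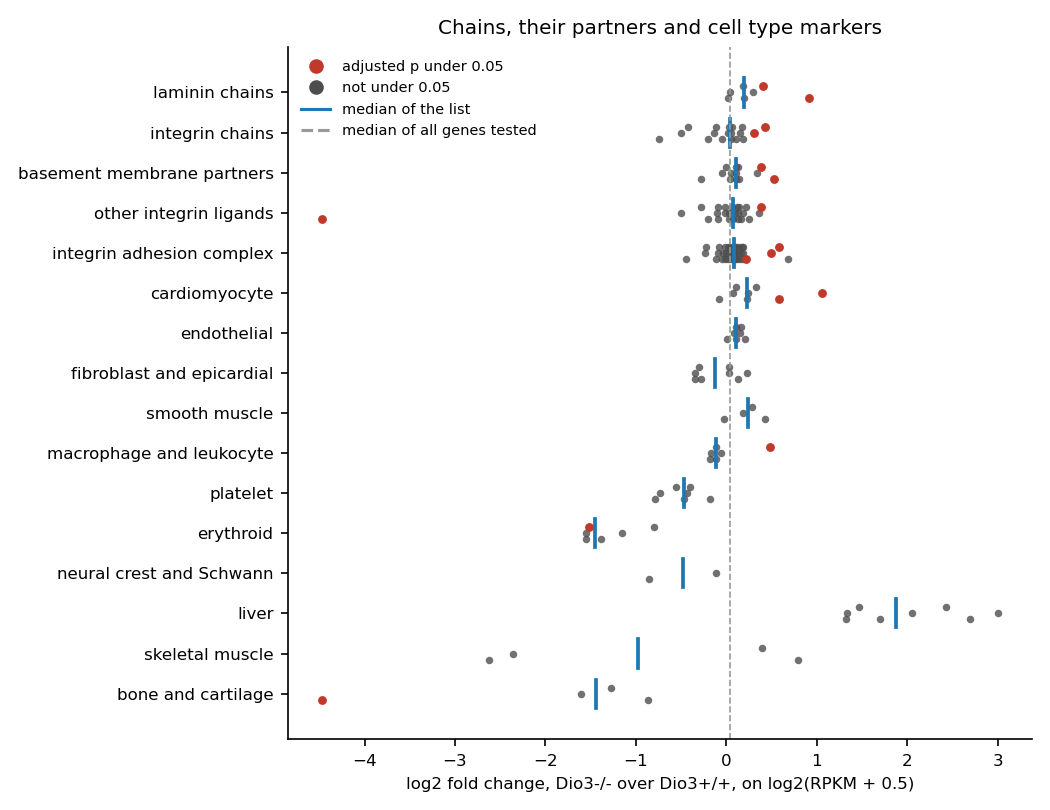
Log2 fold change (x axis, Dio3-/- over Dio3+/+, on the log2(RPKM + 0.5) scale) of each tested gene in the laminin and integrin chains, their partner lists and the cell type markers, with red for an adjusted P value under 0.05, blue bars for the list median and a dashed line for the median of all genes tested (0.039). The platelet and red cell lists lie left of 0, with medians of -0.46 and -1.45, and the liver list lies right of it.

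Centring the genotypes on the median ratio over the table, which lowers each log2 fold change by 0.038, left 3 of the 4 chain calls (*Lama2*, *Lamb2* and *Itga9*), all higher. Over all genes tested it moved the calls from 280 higher and 56 lower (83.3% higher) to 129 higher and 51 lower (71.7%).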

How the data were processed

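Hearts of 4 *Dio3+/+* and 4 *Dio3-/-* fetuses were grouped by the genotype in the labels. The authors assessed reads with FastQC, aligned them with Novoalign (version 2.08), kept reads that map uniquely and scaled each sample linearly to the one with the fewest reads. Which genome build they used is not given in the sources used here. Genotype means were deposited, taken here as RPKM since the methods filter in that unit and the header names none. The CV, a ratio of SD to mean, was also deposited for each genotype, rounded to 2 decimals. The table further holds the authors' fold change, q value and direction flag, which were not used. It holds no values of single hearts and no read totals. The study's methods give a range of aligned reads per sample, but the depth of each heart, and the precision it sets, could not be computed from the table. Nothing beyond the genotype tells the hearts apart as litters, and *P* values measure the spread between these 4 hearts per genotype.

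Each mean was transformed to log2(mean + 0.5), and its SD was divided by (mean + 0.5) and by the natural log of 2. Variances pooled over both genotypes (6 residual degrees of freedom) were shrunk by limma 3.58.1 in R 4.3.3 toward a trend in the mean, with 3.52 prior degrees of freedom. Benjamini-Hochberg adjustment covered all 32703 rows whose mean exceeded 1 RPKM in either genotype. The transformation is rough at a high CV. The steps were tested on simulated data. Summaries and figures used Python (version 3.11.15), pandas (2.3.3), numpy (2.4.6) and matplotlib (3.10.9). Promoter windows and their coordinates came from RefSeq (GRCm38.p6).

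Members, gene lists, marker lists and motifs were chosen with earlier results of these data known. Every chain above 1 RPKM in a genotype was named with both means, except 1 that is not reported here, those at or below it were named by range, and error and adjusted *P* were given for the called chains and for *Itga2b* and *Itga11*, the others with the largest fold changes. Of the ligand, partner and adhesion lists, called genes and some abundant ones were named. *Npnt* and the marker genes named were chosen after their values were seen. The alternatives were pseudocounts of 0.1 and 1 RPKM, no expression filter, a mean over both genotypes above 5 RPKM, no trend, Welch's test from the summaries, 1 row per gene, centring on the median log2 ratio, each CV raised by 0.005, and a call by any row.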

Additional observations from a re-analysis of the deposited data

How the results depend on the processing

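The 4 chains called higher in *Dio3-/-* hearts were 0 with Welch's test from the summaries. It left 7 chains with an unadjusted *P* value under 0.05 and a higher mean, where the whole table had 1965 such genes and 27 called. Under the other alternatives 3 to 5 chains were called higher and none lower. With Welch's test the adjusted *P* value was 0.060 for *Lama2*, 0.062 for *Itga9*, 0.078 for *Lamb2* and 0.18 for *Itga8*. *Lamc1* passed when rows were kept by a mean above 5 RPKM (adjusted *P* = 0.047 by limma), where fewer rows were tested. Welch's test also left 1 of 2 basement membrane partners higher, 0 of 3 genes of the adhesion complex, and 0 higher and 0 lower of the other ligands. The 3 adhesion complex genes were 1 with centring, 1 with each CV raised by 0.005, 1 without the trend and 2 without the expression filter. The lower call of *Ibsp* was lost (0) without the expression filter and with a pseudocount of 1 RPKM. Centring reversed the sign of *Itgav* (-0.022), *Itgb8* (-0.0071) and *Lamb1* (-0.020), since it lowers each log2 fold change by 0.038. The cause of the other changes was not tested. Of 219 recomputed fold changes of single chains, 209 kept their direction and side of the threshold, 6 lost the call, 1 gained it and 3 reversed. No paired analysis was possible because the table holds only genotype summaries, and for the same reason no single heart, including the 2 with the other age label, could be left out. The table holds no read counts, so the counting error of the low chains could not be computed apart from their CV.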
